A study of Homo sapiens with 6 samples.

Results

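Activins are secreted signalling proteins of the TGF-beta superfamily, and the 10 genes described here encode their subunits, the follistatins that trap them and the receptors that sense them. The genes are INHA, INHBA, INHBB, INHBE, FST, FSTL3, ACVR1, ACVR1B, ACVR2A and ACVR2B, chosen by symbol. All 10 had a row in the deposited table of 23345 gene symbols. The list was drawn up with the fold changes between these same libraries known, so the differences of its members between the groups are given as a description, with sizes and errors. No p-values of the members are printed, and where a member is said to pass or not to pass the threshold of the fit over all genes (an adjusted p under 0.05), this is part of the description and no independent test.

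The libraries came from A375, an established human melanoma cell line, grown in DMEM with 10% fetal bovine serum. One set of cells was infected with a lentivirus for murine BMI1, a subunit of Polycomb repressive complex 1, and these are called BMI1 cells (3 libraries). The control set was infected with a lentivirus for GFP, and these are called GFP cells (3 libraries). Both groups therefore carried a lentivirus, and the promoter that drove the transgenes is not given in the sources used here. Nothing in the labels says that the libraries of a group came from separate cultures, so the errors measure the spread between these libraries, which may be technical.

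An activin is a dimer of inhibin beta chains. INHBA encodes the chain of activin A, INHBB that of activin B and INHBE that of activin E, while INHA encodes the inhibin alpha chain, which pairs with a beta chain to form an inhibin, an antagonist of activin signalling. The dimer binds a type II receptor kinase, ACVR2A or ACVR2B, which then activates a type I receptor kinase, mainly ACVR1B. The type I receptor phosphorylates SMAD2 and SMAD3, which enter the nucleus with SMAD4 and change transcription. FST (follistatin) and FSTL3 (follistatin-like protein 3) are secreted proteins that wrap around activin and keep it from its receptors. The type I receptor ACVR1 serves mainly BMP ligands and can also hold activin A in a complex that does not signal in the usual way.

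The start sites of INHBA, INHBB, FST and FSTL3, the members with the largest fold changes, differed in base composition, and are shown for that reason. ACVR1, which was higher by a smaller fold, has 3 windows of 76.3%, 52.7% and 48.0% G or C, which are not printed. Each sequence runs 5′ to 3′ along the gene's own strand, from 250 bases before to 50 bases after the start, as RefSeq gives it on GRCh38.p14. CG dinucleotides, which are dense in CpG islands, a kind of promoter that Polycomb complexes often occupy, are in capitals. The windows are chr7:41703041-41703340 (minus strand) for INHBA, chr2:120345886-120346185 (plus) for INHBB, chr5:53480379-53480678 (plus) for FST and chr19:676142-676441 (plus) for FSTL3.
INHBA: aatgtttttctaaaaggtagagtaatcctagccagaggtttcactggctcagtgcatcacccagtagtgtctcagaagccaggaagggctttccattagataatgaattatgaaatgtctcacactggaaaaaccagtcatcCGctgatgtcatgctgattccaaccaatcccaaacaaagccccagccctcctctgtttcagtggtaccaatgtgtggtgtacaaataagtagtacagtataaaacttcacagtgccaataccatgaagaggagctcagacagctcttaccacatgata
INHBB: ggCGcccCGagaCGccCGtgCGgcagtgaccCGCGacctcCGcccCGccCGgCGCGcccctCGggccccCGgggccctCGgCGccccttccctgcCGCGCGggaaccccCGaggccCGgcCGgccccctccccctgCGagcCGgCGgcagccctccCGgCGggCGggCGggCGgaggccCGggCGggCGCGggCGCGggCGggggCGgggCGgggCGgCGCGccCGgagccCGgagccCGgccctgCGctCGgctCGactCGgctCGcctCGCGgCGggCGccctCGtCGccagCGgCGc
FST: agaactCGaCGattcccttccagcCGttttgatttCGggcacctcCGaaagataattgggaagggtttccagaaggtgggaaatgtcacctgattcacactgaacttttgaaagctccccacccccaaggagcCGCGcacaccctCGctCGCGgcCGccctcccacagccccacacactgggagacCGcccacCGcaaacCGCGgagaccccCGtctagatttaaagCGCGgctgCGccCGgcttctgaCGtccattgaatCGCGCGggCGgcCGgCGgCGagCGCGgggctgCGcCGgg
FSTL3: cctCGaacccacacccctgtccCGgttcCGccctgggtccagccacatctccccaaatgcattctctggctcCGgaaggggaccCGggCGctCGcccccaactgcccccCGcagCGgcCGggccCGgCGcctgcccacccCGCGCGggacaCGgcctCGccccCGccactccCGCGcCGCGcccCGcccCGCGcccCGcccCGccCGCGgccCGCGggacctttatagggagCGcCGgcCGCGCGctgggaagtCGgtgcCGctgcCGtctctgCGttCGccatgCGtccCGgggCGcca

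The INHBA window held 1 CG dinucleotide and was 43.3% G or C. The INHBB, FST and FSTL3 windows held 58, 32 and 44 CG dinucleotides and were 88.7%, 63.7% and 78.7% G or C. RefSeq promoters were found for 9 of the 10 members, in 12 windows, and none was listed for INHBE. A window counted as CpG-rich when it was over 55% G or C and its observed CG count was over 0.65 of that expected from its C and G content. That held for 41.7% of the 35116 promoter windows in the table. Among the 12 member windows it held for 1 window each of 6 members (INHBB, FST, FSTL3, ACVR1, ACVR1B and ACVR2B). It held for no window of INHA, INHBA or ACVR2A. The 41.7% is a share of windows, so it is to be set beside the 12 windows and not beside the 9 genes. The motif CAGAC, the core of a SMAD binding element, was searched on both strands. It lay in 6 of the 12 member windows and in 45.3% of all windows; of the 4 windows printed above only that of INHBA held it. TATAAA, searched on both strands, lay in the windows of INHBA and FSTL3 and in 11.5% of all windows. Such matches describe the letters of these windows only.

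The 6 libraries held between 20221432 and 30388937 estimated counts. The row of BMI1 itself stood at 518, 522 and 506 CPM in BMI1 cells and at 81.5, 92.7 and 94.0 CPM in GFP cells; how many reads of the murine transgene this human row holds is not known from the table. CPM is the count scaled to a common library size, here by edgeR's TMM method. GFP replicate 1 lay apart from the other GFP libraries on the second principal component, which held 12.2% of the variance, so a fold change of a member that moves by over 1.5 times or changes its call without it is also given without it. Of 8 melanoma cell markers, 5 reached the count filter and none of these passed the threshold, which 26.4% of all tested genes passed. SOX10, a lineage transcription factor, averaged 632 CPM in BMI1 cells and 647 CPM in GFP cells, and PAX3, another, 18.6 CPM in BMI1 cells and 18.8 CPM in GFP cells. MITF averaged 33.6 CPM in BMI1 cells and 33.7 CPM in GFP cells, and S100B 46.2 and 49.8 CPM. Other markers were low: MLANA averaged 0.64 CPM in BMI1 cells and 0.70 CPM in GFP cells. PMEL, at 0.36 and 0.53 CPM, did not reach the count filter. The pigment genes TYR and DCT were at or near 0, with at most 5 counts summed over a group.

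The ligand subunit genes differed widely in how they behaved. INHBA, the activin A chain, had 125, 118 and 124 CPM in BMI1 cells, against 43.6, 45.8 and 47.4 CPM in GFP cells. Every BMI1 library lay far above every GFP library, and the groups' spreads, 3.66 and 1.95 CPM (SD, n = 3 each), were small beside the gap. The fold was 2.68, a log2 fold change of 1.42 (SE 0.06), and omitting a single library kept it between 1.40 (GFP replicate 1 omitted) and 1.45 (GFP replicate 3 omitted). In bulk RNA, more transcript per cell and more cells that make it cannot be told apart.

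INHBB, the activin B chain, was close to silent in GFP cells. It had 36, 25 and 26 counts in BMI1 cells, against 0, 2 and 3 counts in GFP cells, or 1.30 ± 0.28 CPM against 0.060 ± 0.053 CPM (SD, n = 3 each). The groups did not overlap, and the level in BMI1 cells was still low. The ratio of the summed counts, 87 in BMI1 cells and 5 in GFP cells, was 19.7 after scaling, with a 95% interval of 8.15 to 62.3 that covers counting error only (exact, conditional on the total). The fitted log2 fold change, 4.21 (SE 0.46), rests on the 5 GFP counts and moved to 3.78 without GFP replicate 1, the library at 0, and to 4.74 without GFP replicate 3. INHBB reached the count filter through its BMI1 libraries alone.

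INHBE and INHA did not pass the threshold. INHBE, the activin E chain, which in mouse and human is best known from the liver, had 1.61, 1.93 and 2.12 CPM in BMI1 cells, against 2.01, 1.99 and 2.39 CPM in GFP cells. INHA had 0.85, 1.04 and 1.38 CPM in BMI1 cells, against 1.29, 0.64 and 0.93 CPM in GFP cells. In both genes the groups overlapped. INHA rests on 74 counts over the BMI1 libraries and 71 over the GFP libraries, and its log2 fold change of 0.23 (SE 0.29) ran from 0.00 without BMI1 replicate 3 to 0.48 without GFP replicate 1. For INHBE it was -0.18 (SE 0.18) and ran from -0.28 without BMI1 replicate 3 to -0.08 without BMI1 replicate 1.

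Both follistatin genes rose together with INHBA. FST had 172, 185 and 174 CPM in BMI1 cells, against 83.0, 83.4 and 80.1 CPM in GFP cells. FSTL3 had 37.2, 35.1 and 39.0 CPM in BMI1 cells, against 21.7, 20.1 and 19.4 CPM in GFP cells. Neither gene showed any overlap between the groups, and the coefficient of variation within a group ran from 2.18% to 5.77%. The folds were 2.15 for FST and 1.82 for FSTL3. On the log2 scale they were 1.11 (SE 0.05) and 0.87 (SE 0.06). The transcripts of FSTL3 have a higher G and C content than those of FST, 64.4% against 46.8%, and a correction of each library for GC content moved FSTL3 to 0.73 and FST to 1.14 on that scale.

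**Figure D1:**
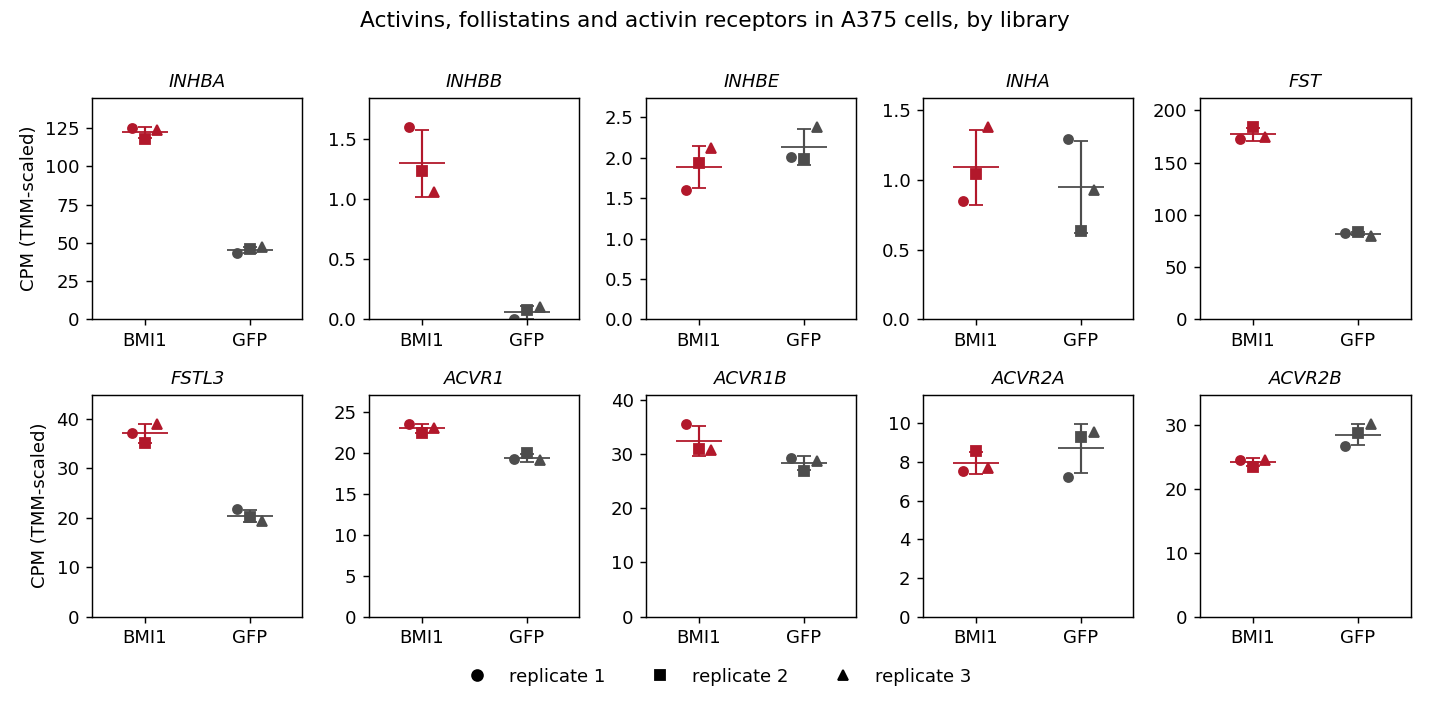
TMM-scaled CPM (linear axes from 0) of the 10 genes in each library of BMI1 and GFP cells; marker shapes give the replicate number, horizontal lines the mean and bars the SD (n = 3). INHBA, INHBB, FST and FSTL3 stand clearly apart between the groups, whereas INHBE, INHA and ACVR2A overlap.

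The receptor genes moved far less than INHBA, INHBB and both follistatin genes, and not all in 1 direction. ACVR1 rose slightly, with 23.6, 22.4 and 23.0 CPM in BMI1 cells, against 19.2, 20.0 and 19.1 CPM in GFP cells (log2 fold change 0.24, SE 0.06). ACVR1B, the main type I receptor for activin, had 35.6, 30.9 and 30.7 CPM in BMI1 cells, against 29.3, 26.9 and 28.8 CPM in GFP cells. Its groups did not overlap either, but the lowest BMI1 and highest GFP library were close, and its log2 fold change of 0.19 (SE 0.07) did not pass. Without GFP replicate 1 it was 0.22 and passed. It also passed under the 1 CPM filter, after GC correction and with the replicate block. Under the other alternatives ACVR1B did not pass, at 0.12 without BMI1 replicate 1 and 0.16 without GFP replicate 2.

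Of the type II receptors, 1 passed, with lower values in BMI1 cells. ACVR2B had 24.6, 23.5 and 24.6 CPM in BMI1 cells, against 26.7, 28.7 and 30.1 CPM in GFP cells. Each BMI1 library was below each GFP library, and the fall was 15.3% (log2 fold change -0.24, SE 0.06). The call of ACVR2B was lost without GFP replicate 2, at -0.24, and without GFP replicate 3, at -0.20. ACVR2A had 7.54, 8.58 and 7.70 CPM in BMI1 cells, against 7.24, 9.30 and 9.58 CPM in GFP cells. GFP replicate 1 was the lowest of all 6, so the groups overlapped, and the log2 fold change of -0.15 (SE 0.12) did not pass. With GFP replicate 1 omitted it was -0.25, with GFP replicate 3 omitted -0.07, passing in neither case, and after GC correction it was -0.04. Exons of ACVR2A share 430 bases with ORC4 on the opposite strand in GENCODE v29, and whether the counting used strand is not given, so reads there cannot be told apart.

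**Figure D2:**
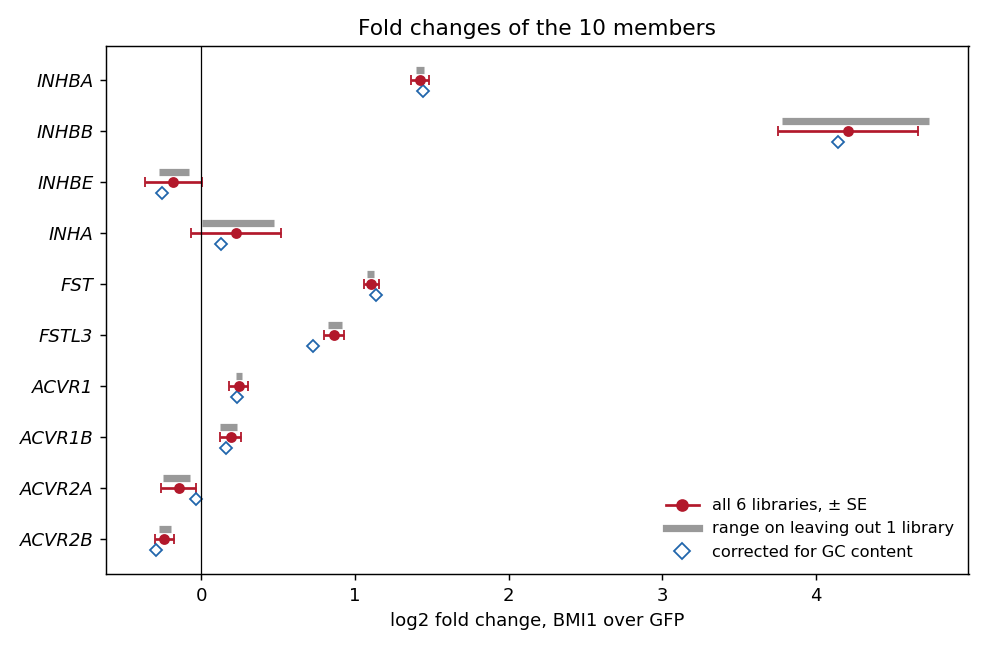
Log2 fold change, BMI1 over GFP, of each of the 10 genes: red points with all 6 libraries (bars are the SE), grey bands the range on leaving out 1 library, open diamonds after correction for GC content. INHBB has the largest value and the widest band, from 3.78 to 4.74, while INHBA, FST and FSTL3 have narrow bands well above 0.

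By count, 5 of the 10 members were higher in BMI1 cells (INHBA, INHBB, FST, FSTL3 and ACVR1), 1 was lower (ACVR2B) and 4 did not pass at an adjusted p under 0.05 in edgeR's quasi-likelihood test. Over all 15079 tested genes, 17.1% were higher, 9.32% were lower and 26.4% changed in either direction. Without GFP replicate 1, 6 members were higher and 1 was lower, and of all genes then tested 20.9% were higher and 16.0% lower. The libraries of the groups did not overlap in CPM for 6 members with higher and 1 with lower values in BMI1 cells, and for 22.7% and 17.4% of all tested genes (40.1% in either direction). The median log2 fold change of the 10 was 0.23, and that of all tested genes was -0.01. INHBB, among the higher members, reached the count filter through its BMI1 libraries alone. The members were also chosen with this comparison known, so nothing is read from these counts against that background.

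The balance between the genes within a library does not depend on how libraries are scaled. These ratios were chosen after the values had been seen. The ratio of INHBA to FST counts was 0.73, 0.64 and 0.71 in BMI1 cells, against 0.52, 0.55 and 0.59 in GFP cells. The ratio of INHBA to FSTL3 was 3.37, 3.37 and 3.18 in BMI1 cells, against 2.01, 2.28 and 2.44 in GFP cells. In each BMI1 library INHBA thus stood higher relative to either follistatin gene than in any GFP library, although the gap for FST, between 0.64 and 0.59, was about as wide as the SD within a group (0.05 and 0.03).

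The gap was wider when the ligand was set against a receptor. The ratio of INHBA to ACVR2B counts was 5.09, 5.04 and 5.04 in BMI1 cells, against 1.63, 1.60 and 1.57 in GFP cells. The ratio of ACVR2A to ACVR2B was 0.31, 0.37 and 0.31 in BMI1 cells, against 0.27, 0.32 and 0.32 in GFP cells, with overlap. The ratio of ACVR1B to ACVR1, the type I receptors, was 1.41 ± 0.09 in BMI1 cells and 1.46 ± 0.10 in GFP cells (SD, n = 3 each), and also overlapped. INHBA and FST together took between 69.2% and 70.8% of the counts of the 10 genes in BMI1 libraries and between 53.6% and 54.5% in GFP libraries.

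**Figure D3:**
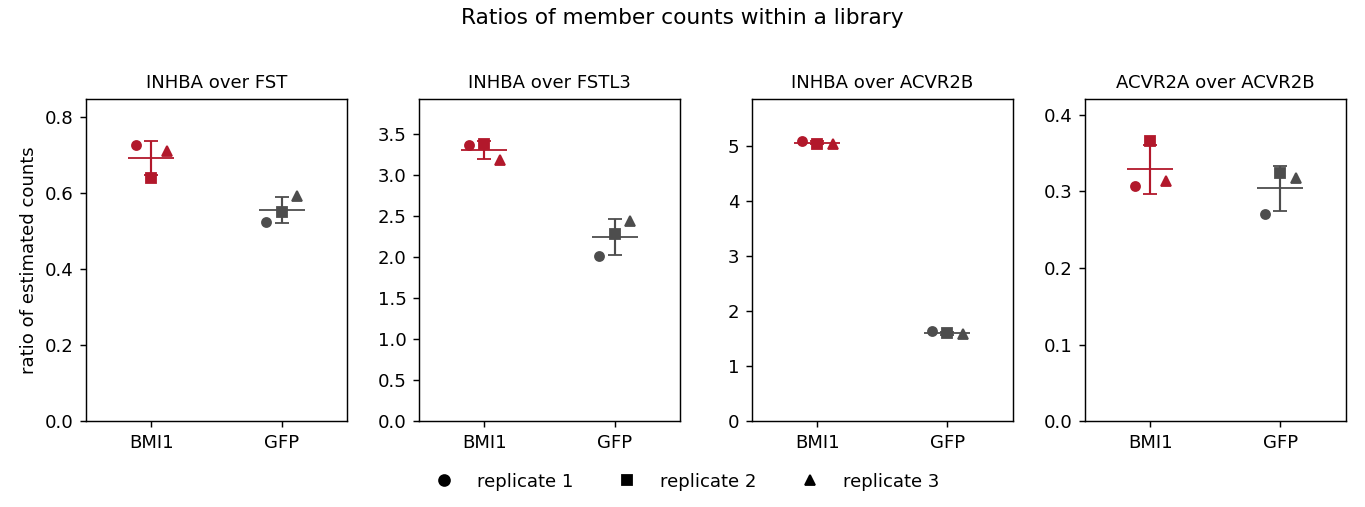
Ratios of estimated counts of pairs of the genes within each library (linear axes from 0), for BMI1 and GFP cells; marker shapes give the replicate number, horizontal lines the mean and bars the SD (n = 3). The ratio of INHBA to ACVR2B lies near 5.06 in BMI1 cells and 1.60 in GFP cells, while the ratio of ACVR2A to ACVR2B overlaps between them.

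Levels were compared between genes per length, as counts per kilobase of the principal GENCODE v29 transcript, scaled to the same sum as CPM in each library. The transcript forms that A375 cells use are not known from these data, so the order depends on that choice of length. FST was the most abundant, at 159 ± 5.97 in BMI1 cells and 73.2 ± 1.23 in GFP cells (SD, n = 3 each, in these units). In BMI1 cells INHBA came next, at 45.7 ± 1.47, above FSTL3 at 33.0 ± 1.59. In GFP cells the ranges of FSTL3, 17.2 to 19.1, and INHBA, 16.1 to 17.7, overlapped.

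The receptors came lower per length in both groups. ACVR1 and ACVR1B were neighbours with overlapping ranges, at 17.1 ± 0.51 and 16.1 ± 1.51 in BMI1 cells. In GFP cells they stood at 14.3 ± 0.29 and 13.9 ± 0.67, again with overlap. The type II receptors were scarcer than the type I receptors in these units. ACVR2B averaged 4.63 in BMI1 cells and 5.41 in GFP cells, and ACVR2A 3.13 in BMI1 cells and 3.41 in GFP cells. For ACVR2B this rests on its length of 11821 bases, against 3047 for ACVR1. In CPM, ACVR2B averaged 24.2 in BMI1 cells and 28.5 in GFP cells, above ACVR1 at 23.0 and 19.4. ACVR1B averaged 32.4 CPM in BMI1 cells and 28.3 CPM in GFP cells. Per length, INHBE and INHA overlapped below the type II receptors, at 1.75 and 1.68 in BMI1 cells and 1.97 and 1.46 in GFP cells. INHBB was last, at 0.92 in BMI1 cells and 0.042 in GFP cells. The level of INHBA relative to the sum of FST and FSTL3, per length, was between 0.22 and 0.25 in BMI1 libraries and between 0.17 and 0.20 in GFP libraries, so transcripts of the trapping proteins outnumbered those of the activin A chain in both groups.

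The genes whose pattern over the 6 libraries lay nearest to each of INHBA and FST were taken from 11440 genes with a mean of at least 5 CPM, by Euclidean distance of gene-centred log2 CPM. With only 2 groups such a pattern is mainly the size of the fold. For INHBA they were LMO7 (distance 0.09), ID1 (0.13), KIF1A (0.13), DAAM2 (0.15) and ID3 (0.16), whose log2 fold changes ran from 1.36 to 1.47. ID1 and ID3 encode inhibitors of helix-loop-helix transcription factors. For FST they were MYO1D (0.06), ISLR (0.09), MYO10 (0.11), TBC1D30 (0.12) and LMF1 (0.13), with log2 fold changes from 1.10 to 1.14.

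Other genes of the pathway were listed by role, 65 in all, with some of their results known beforehand. Of the 50 that passed the count filter, 23 were higher in BMI1 cells, 4 were lower and 23 did not pass, with a median log2 fold change of 0.22. Over all tested genes 17.1% were higher, 9.32% were lower and the median was -0.01, and each count below is to be read beside these shares. Without GFP replicate 1, 28 pathway genes were higher and 7 lower, and of all genes then tested 20.9% were higher and 16.0% lower. Of 8 other ligands related to activins or able to use their receptors, 2 were tested and neither passed: GDF11 had 96.6 ± 0.58 CPM in BMI1 cells and 99.1 ± 4.66 CPM in GFP cells (SD, n = 3 each), and GDF1 10.0 CPM in BMI1 cells and 9.28 CPM in GFP cells. INHBC, MSTN, NODAL, LEFTY1 and LEFTY2 stayed below the filter, with at most 14 counts over a group, and GDF3 had 0 counts in all libraries, a limit of 0.15 CPM in the library of lowest depth. GDF11 and GDF1 were named after their values were seen. In the other lists up to 4 passing genes each were named by smallest adjusted p. The adjusted p-values printed for genes of these lists are therefore part of the description and no independent test.

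Of 12 further receptors and co-receptors, 10 were tested, of which 5 rose, 1 fell and 4 did not pass. TGFBR2, the type II receptor for TGF-beta, had 83.7 ± 1.06 CPM in BMI1 cells and 54.0 ± 0.93 CPM in GFP cells (log2 fold change 0.63, edgeR adjusted p = 2.59e-06). Its type I partner TGFBR1 stood 0.54 higher on the log2 scale (edgeR adjusted p = 0.000659). TGFBR3, or betaglycan, a co-receptor that lets inhibin compete with activin, had 0.58 (edgeR adjusted p = 0.000488). BAMBI, a decoy receptor without a kinase, had 0.50 (edgeR adjusted p = 3.88e-05). ACVR1C, a type I receptor for nodal and activin, fell, with 22 counts over the BMI1 libraries and 88 over the GFP libraries (log2 fold change -1.79, SE 0.36, edgeR adjusted p = 0.00242). ACVR1C reached the count filter through its higher GFP libraries, so its call is conditional on them. Its log2 fold change ran from -2.15 without BMI1 replicate 2 to -1.49 without GFP replicate 2. BMPR1B, a type I BMP receptor, had 0.73 (edgeR adjusted p = 0.0142), and lost its call on omitting BMI1 replicate 2 (0.66) or 3 (0.65), or GFP replicate 2 (0.71) or 3 (0.68). ACVRL1, BMPR2, BMPR1A and IGSF1 did not pass. These last 4, ACVR1C and BMPR1B were named after their values were seen.

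Among 6 further ligand-binding proteins, 2 were tested and 1 passed. FSTL1, a secreted relative of follistatin, rose by 1.58 on the log2 scale, to 68.7 ± 1.91 CPM in BMI1 cells against 22.9 ± 0.62 CPM in GFP cells (SD, n = 3 each; edgeR adjusted p = 1.42e-09). Proteases that cleave TGF-beta family precursors rose in part: of 7 listed, 6 were tested, 4 rose and 2 did not pass. PCSK6, a proprotein convertase, had 16.6 ± 1.09 CPM in BMI1 cells and 2.63 ± 0.26 CPM in GFP cells, a fold of 6.37 (edgeR adjusted p = 3.90e-09). PCSK5, of the same family, rose by 1.40 on the log2 scale (edgeR adjusted p = 1.60e-06). The tolloid-like protease TLL2 had 1.24 and its relative BMP1 0.41 (edgeR adjusted p = 0.000178 and 0.00221). FURIN, the convertase best known for cleaving the activin precursor, had 137 ± 9.08 CPM in BMI1 cells and 125 ± 8.53 CPM in GFP cells and did not pass (edgeR adjusted p = 0.161).

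In the SMAD2 and SMAD3 arm, 18 of 19 genes were tested, of which 3 rose, 3 fell and 12 did not pass. The share that rose was close to the 17.1% of all tested genes, and the median log2 fold change was 0.02. SMAD3 had 132 ± 5.23 CPM in BMI1 cells and 103 ± 0.92 CPM in GFP cells (log2 fold change 0.36, edgeR adjusted p = 0.000152). SMAD2 had 73.5 ± 4.29 CPM in BMI1 cells and 73.0 ± 4.48 CPM in GFP cells (edgeR adjusted p = 0.952). The inhibitory SMAD7 and SMAD6 rose, by 0.63 and 0.56 on the log2 scale (edgeR adjusted p = 0.000171 and 0.000273). The shared partner SMAD4, the ubiquitin ligase NEDD4L and the coactivator EP300 fell slightly, with log2 fold changes of -0.25, -0.17 and -0.21 (edgeR adjusted p = 0.0159, 0.0338 and 0.0247). NEDD4L and EP300 were named after their values were seen. The SMAD4 call was lost on omitting BMI1 replicate 1, at -0.25, BMI1 replicate 3, at -0.23, or GFP replicate 3, at -0.18. The NEDD4L call was lost without any 1 library other than GFP replicate 1, between -0.19 and -0.14. The EP300 call was lost on omitting BMI1 replicate 2, at -0.18, BMI1 replicate 3, at -0.20, or GFP replicate 3, at -0.19. Over all pathway lists, 7 genes were lower without GFP replicate 1, 2 without BMI1 replicate 1, and 1 without GFP replicate 3 or BMI1 replicate 3. Over all tested genes, 2451 were lower without GFP replicate 1 and 727 without BMI1 replicate 1. There were 885 without GFP replicate 3 and 711 without BMI1 replicate 3.

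Genes that SMAD2 and SMAD3 are known to induce made up the list with the most rises: of 13 listed, 12 were tested, 10 rose and 2 did not pass, with a median log2 fold change of 0.88. FN1, PMEPA1 and TGFBI were known to be raised in these libraries when the list was written, so the list is not independent evidence of a direction. No p-values are printed for these genes. PMEPA1, a feedback inhibitor that binds SMAD2 and SMAD3, rose 3.57-fold (log2 fold change 1.84, SE 0.05). TGFBI, a matrix protein, rose 1.85-fold (log2 fold change 0.89, SE 0.04). COL1A1, a chain of type I collagen, rose to 7.69 ± 0.89 CPM in BMI1 cells, against 2.88 ± 0.20 CPM in GFP cells (SD, n = 3 each). The log2 fold change of COL1A1 was 1.42 (SE 0.13). FN1, the fibronectin gene, had the largest fold of the list, 9.39 (log2 fold change 3.23, SE 0.04). CTGF and TAGLN, named after their values were seen, did not pass, with log2 fold changes of 0.19 and -0.27. CDKN2B, another known target, had 0 counts in every library. JUNB, named after its values were seen, was among the 10 that rose although its groups overlapped (log2 fold change 0.25, SE 0.08). For JUNB, BMI1 replicate 2 stood at 98.8 CPM and GFP replicate 1 at 102 CPM. COL1A2, counted among the 10 that rose, had 54 counts over the BMI1 libraries and 28 over the GFP libraries. It reached the count filter through its higher BMI1 libraries, so its call is conditional on them.

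**Figure D4:**
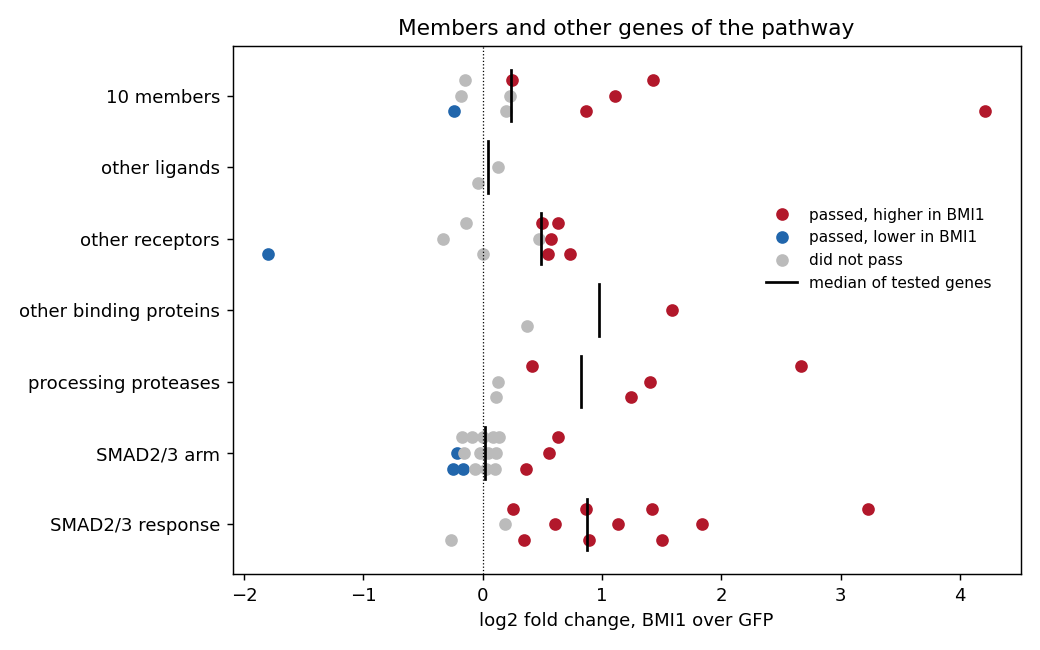
Log2 fold change, BMI1 over GFP, of the tested genes of each list, 1 point per gene, offset vertically for visibility; red and blue points passed edgeR's test at an adjusted p under 0.05, grey points did not, and black bars are medians. The SMAD2 and SMAD3 response list lies mostly above 0, with 10 of 12 genes passing, whereas most genes of the SMAD2 and SMAD3 arm are close to 0.

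Markers of other cell types were measured as well. Their counts are to be read beside all tested genes, of which 17.1% were higher and 9.32% lower. Of 9 fibroblast markers, 6 were tested and 4 were higher in BMI1 cells (COL1A1, COL1A2, LUM and PDGFRA). DCN and PDGFRB did not pass, with log2 fold changes of 0.47 and 0.22. The summed level of all 9 was 52.3 to 57.2 CPM in BMI1 libraries and 32.5 to 36.7 CPM in GFP libraries. COL1A2 had 54 counts over the BMI1 libraries and 28 over the GFP libraries. It reached the count filter through its higher BMI1 libraries, so its call is conditional on them. COL1A1 and COL1A2 are also in the response list. COL3A1, THY1 and FAP did not reach the count filter, with 6, 5 and 17 counts over the BMI1 libraries and 8, 1 and 20 over the GFP libraries. The part of these markers in the results above was not tested. None of the 5 leukocyte markers passed the count filter, and their summed level was at most 0.41 CPM in BMI1 libraries and 0.67 CPM in GFP libraries. Of 4 endothelial markers 3 were tested, with 1 higher (VWF) and 1 lower (KDR), and of 3 keratinocyte markers 1 was tested (KRT14) and was higher. The marker genes in this paragraph were named after their values were seen.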

How the data were processed

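Total RNA, extracted with TRIzol and purified on columns, was made into Illumina libraries, per the labels' protocols. The authors deposited estimated counts per gene symbol in 6 columns, with 0 columns unused. Bowtie 1.0.1, RSEM 1.2.12 and genome build hg19 are named in the submitters' processing notes. Annotation, read length and strand were not given in the sources used here. No coordinates stand in the table, and those printed are RefSeq's on GRCh38.p14.

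Estimated counts were rounded and filtered with edgeR's filterByExpr (minimum count 10), which kept 15079 genes, the 10 members among them. After TMM scaling, the quasi-likelihood test of edgeR 4.0.16 (R 4.3.3) was applied, and p-values were adjusted by Benjamini-Hochberg over all tested genes, at a threshold of 0.05. Standard errors are the log2 fold change over the square root of F. CPM values are TMM-scaled. In every pair of replicates the counts differed beyond sampling noise (mean chi-square per gene 2.18 to 11.2).

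The members and lists were chosen with earlier results of these data known. Named genes were BMI1, the members, up to 4 passing genes of each list with the smallest adjusted p, SMAD2, SMAD3, SMAD4 and SMAD7, and the 5 nearest patterns to INHBA and FST; every other gene in the text, markers included, was named after its values were seen. Alternatives were DESeq2 size factors, the DESeq2 1.42.0 Wald test, no filter, at least 1 CPM in 3 libraries, each library left out, the replicate number as a block, and a GC correction by lowess (span 0.3) on GENCODE v29 transcripts, with a match for 94.6% of the genes. The tests were also run on simulated counts with known changes, drawn from the mean CPM of these libraries and a dispersion shared by all genes. The outcome is not reported here, and no result above rests on it. A row at 0 allows up to 3 counts. Such limits and count intervals cover counting error only. Figures were drawn with matplotlib 3.10.9.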

Additional observations from a re-analysis of the deposited data

How the results depend on the processing

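Over the alternatives, 114 of 120 values of the members kept their direction and their side of the threshold; 4, all of ACVR1B, newly passed, and 2, both of ACVR2B, no longer passed, and no member changed sign. The members were chosen with this comparison known, so these counts are no measure of stability. With 1 library left out, between 0 and 1 members and between 1 and 7 pathway genes were lower in BMI1 cells. The count of all genes lower in BMI1 cells was 1405; it ran from 711 without BMI1 replicate 3 to 2451 without GFP replicate 1, and was 2448 after GC correction. The cause was not tested. SMAD2, near 0 throughout, had a log2 fold change of 0.01 with all libraries, -2.00e-04 with no filter, -3.00e-04 without BMI1 replicate 1, -0.030 without BMI1 replicate 2, and from -0.036 (without GFP replicate 1) to 0.052 (without BMI1 replicate 3) with 1 library left out. Nothing says that the replicate numbers pair libraries: deviations of same-numbered libraries from their group means correlated at 0.07, 0.09 and -0.07, and not every library correlated best with its own number. With the replicate block 2580 genes were higher, 1408 lower, and 6 members higher. Depth limits INHBB and INHA, which have 87 and 74 counts over the BMI1 libraries and 5 and 71 over the GFP libraries.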
